A study of Mus musculus with 5 samples.

Results

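Liver RNA of the inbred mouse strains C57BL/6J and RIIIS/J was compared on 2 of the 5 Affymetrix Mouse430_2 expression arrays of a study that set inbred strains side by side to follow up expression differences mapped elsewhere. Each array was hybridised with RNA from 1 pool of 3 males that were untreated and 10 weeks old. The C57BL/6J group and the RIIIS/J group therefore hold 1 array each. The other 3 arrays, of BALB/CByJ, FVB/NJ and NZW/LacJ males pooled in the same way, serve here only to show on which side of a difference other strains lie. The arrays to compare were chosen by strain label. C57BL/6J is the common reference strain and carries a deletion in Nnt, the mitochondrial transhydrogenase gene. RIIIS/J is known for low plasma von Willebrand factor. A pool hides the spread between animals. No fold below has a replicate check, since a strain has 1 array, so no test was made, and the precision of each value is limited by the number of arrays.

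Hepatocytes, the main cells of the liver, make the plasma proteins, convert and export lipids and bile acids, and detoxify foreign compounds. Much of this output follows a daily rhythm, in which the activators CLOCK and BMAL1 drive their own repressors of the PER, CRY and REV-ERB families and a set of output factors such as DBP. Kupffer cells, the resident macrophages, together with endothelial and stellate cells make up most of the remainder, and interferon-stimulated and major histocompatibility (MHC) genes are read from several of these cell types.

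The labelled tissue was checked against its defining markers. Alb, which encodes albumin, had intensities of 68894 against 74714 (C57BL/6J against RIIIS/J, the order used for all pairs of values below), Ttr, the transthyretin gene, had 63027 against 67939, and the hepatocyte transcription factor gene Hnf4a had 3428 against 3591. Of 11 detected hepatocyte markers 0 were 2-fold higher in C57BL/6J and 0 in RIIIS/J, with a median log2 difference of -0.13. Both pools carried RNA of the Y-linked gene Kdm5d (164 against 125), as male labels require. The RIIIS/J array also held RNA of acinar pancreas, the enzyme-secreting tissue next to the liver. Prss2, a trypsinogen gene, read 10.1 in C57BL/6J, 14379.7 in RIIIS/J, 10.4 in BALB/CByJ, 11.9 in FVB/NJ and 12.8 in NZW/LacJ. Cpa1, a pancreatic carboxypeptidase gene, read 5.59 in C57BL/6J, under the detection limit, and 4650.2 in RIIIS/J. Of 45 acinar genes on the array 34 were detected in at least 1 of the 2 strains, and of these 34 genes 28 were at least 2-fold higher in RIIIS/J and 22 were under the detection limit in C57BL/6J. Acinar genes made up 1.04% of the summed gene intensity of the RIIIS/J array against 0.0813% in C57BL/6J. Most of the C57BL/6J share was 1 gene of the list, the amylase gene Amy1, at 9228 against 11347. The 34 detected acinar genes summed to 10183 against 132592. All acinar genes were set aside from the counts below. The actin signal at the 3′ end over that at the 5′ end, a ratio that grows with RNA degradation, was 3.93 in C57BL/6J and 2.76 in RIIIS/J, and the 18S ribosomal RNA control read 1234 against 5805. The part of pancreatic RNA and of these control signals in the differences below was not tested.

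Among 11428 genes above the detection limit on at least 1 of the 2 arrays, 1049 (9.18%) were at least 2-fold apart. Of these 648 (5.67%) were higher in C57BL/6J and 401 (3.51%) were higher in RIIIS/J. These shares of all genes are the level beside which each list count below stands. The detection limit, or floor, was an intensity of 8.22, taken from probe sets of chemosensory receptors that liver should not express, and lower values were raised to it, which makes such folds lower bounds. Over all genes the median difference was 0.02 on the log2 scale, with C57BL/6J minus RIIIS/J as the direction throughout, and the median absolute difference was 0.23. At least 4-fold differences numbered 139 toward C57BL/6J and 64 toward RIIIS/J, and at least 16-fold differences numbered 24 and 9. For scale, C57BL/6J compared in the same way with BALB/CByJ gave 245 genes higher in C57BL/6J and 333 lower, with FVB/NJ 319 and 966, and with NZW/LacJ 467 and 388, all sharing the C57BL/6J array.

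**Figure D1:**
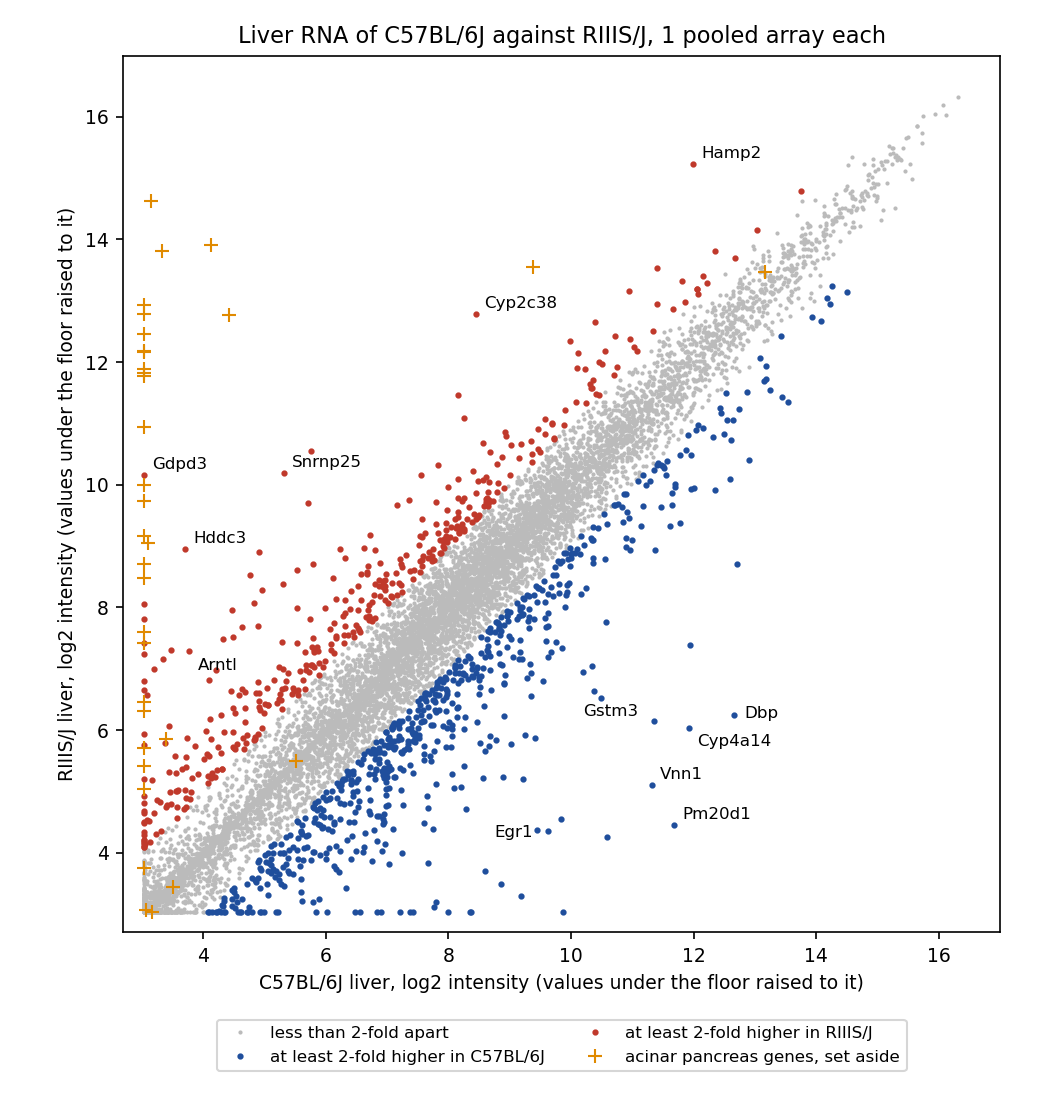
Log2 intensity of each gene on the RIIIS/J array (vertical axis) against the C57BL/6J array (horizontal axis), 1 point per gene, with values under the floor raised to it. The 648 genes higher in C57BL/6J lie below the band of grey points and the 401 genes higher in RIIIS/J above it. Most acinar pancreas genes (crosses) run up the left edge because they were near or under the floor in C57BL/6J. Amy1 (9228 in C57BL/6J) and Cela1 (667) lie further right.

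The other 3 strains place many of these differences on the RIIIS/J side. Of the 648 genes higher in C57BL/6J, RIIIS/J was at least 2-fold below each other strain for 204, and C57BL/6J was at least 2-fold above each other strain for 58. A further 1 gene, the protein kinase gene Stk25 (217 in C57BL/6J, 8.64 in RIIIS/J, 76.1 in BALB/CByJ, 37.8 in FVB/NJ and 42.9 in NZW/LacJ), met both conditions. The remaining 385 met neither, so that other strains lay between or on both sides. Of the 401 genes higher in RIIIS/J, RIIIS/J stood above each other strain for 86, C57BL/6J stood below each for 48, both held for 2 and neither held for 265. These counts describe 5 single arrays, of which RIIIS/J is also the one with acinar RNA.

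Several probe sets of 1 gene give the nearest thing to a repeat measurement. Across 2788 genes with a further probe set above the floor on both arrays, the differences of the 2 probe sets were a median of 0.30 log2 apart, and the 95th percentile was 1.41. Of the 648 genes higher in C57BL/6J, 296 had a further detected probe set, and for 218 of these each further set pointed the same way, while for 71 each was also at least 2-fold apart. Of the 401 genes higher in RIIIS/J, 186 had one, and the numbers were 106 and 46. Further probe sets are given below for the genes described at length.

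The largest measured difference belonged to Pm20d1, which encodes a secreted enzyme that joins fatty acids to amino acids. Its intensity was 3301 in C57BL/6J, 21.8 in RIIIS/J, 5044 in BALB/CByJ, 6292 in FVB/NJ and 6300.0 in NZW/LacJ, a difference of 151-fold, and its second probe set gave 6.20 log2. RIIIS/J was the only low array of the 5. Rarres1, a retinoic acid responsive gene, had the same layout with 933 in C57BL/6J, 3.94 in RIIIS/J, 2720.1 in BALB/CByJ, 1154 in FVB/NJ and 2308 in NZW/LacJ. RIIIS/J was under the floor there, so the difference is at least 114-fold.

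Further genes at which RIIIS/J alone was low included Hnmt, encoding the histamine-inactivating methyltransferase, with 695 against 20.6 and 482 to 820.3 in the other strains, a difference of 33.7-fold. Gsn, encoding the actin-severing protein gelsolin, read 464 against 11.3 (41.2-fold), and its 3 further probe sets gave smaller differences of 1.86 to 2.82 log2. Erdr1, a multicopy gene of the X and Y chromosome ends, read 1534 against 19 (80.7-fold), with 1383 to 1651 in the other 3 strains, and copies of such a gene cannot be separated by its probe set. Lrit1 (222 against 9.12, 24.3-fold), a leucine-rich repeat gene, was also low in RIIIS/J alone. Ttll1, encoding a tubulin-modifying enzyme, gave 119 against 7.5 and at least 14.5-fold, but its second probe set gave 0.02 log2.

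Vnn1, Cyp4a14 and Pttg1 showed the opposite layout, with C57BL/6J as the only high array. Vnn1, encoding the pantetheinase vanin that recycles vitamin B5 from coenzyme A breakdown, read 2557 in C57BL/6J, 34.2 in RIIIS/J, 45.5 in BALB/CByJ, 33.1 in FVB/NJ and 33 in NZW/LacJ. That is 74.8-fold, and the second probe set gave 5.14 log2. The neighbouring vanin gene Vnn3 was also at least 2-fold higher in C57BL/6J. Pttg1, encoding the chromosome segregation inhibitor securin, read 3948 in C57BL/6J, 166 in RIIIS/J, 314 in BALB/CByJ, 552 in FVB/NJ and 316 in NZW/LacJ. Its 2 further probe sets gave 1.75 and 4.24 log2. Zfp874a, a zinc finger gene, read 328 in C57BL/6J and was at or near the floor in the other 4 strains. The same held for Olig1 (148 in C57BL/6J, 3.81 to 3.92 in the other 3), a transcription factor gene of the oligodendrocyte lineage, and for the predicted gene Gm7969 (255, 6.33 to 6.84), whose further probe sets gave 4.29 and 0.00 log2. Col5a3, a collagen chain gene, gave 172 against 7.28 (at least 21-fold), with 8.94 to 24.8 elsewhere.

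Toward RIIIS/J the largest measured difference was that of Hddc3, encoding a small HD-domain phosphohydrolase, with 13 in C57BL/6J, 496 in RIIIS/J, 375 in BALB/CByJ, 195 in FVB/NJ and 599 in NZW/LacJ. Here C57BL/6J was the low array, by 38.2-fold. Snrnp25, which encodes a protein of the minor spliceosome, read 39.8 in C57BL/6J, 1167 in RIIIS/J, 86.8 in BALB/CByJ, 128 in FVB/NJ and 914 in NZW/LacJ. C57BL/6J was again lowest, and NZW/LacJ lay with RIIIS/J. Its chromosomal neighbours Rhbdf1 and Mpg were also at least 2-fold higher in RIIIS/J, so that these 3 genes in a row leaned the same way.

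Cyp2c38, a cytochrome P450 gene, was high in RIIIS/J alone, with 349 in C57BL/6J, 7063 in RIIIS/J, 349 in BALB/CByJ, 376 in FVB/NJ and 118 in NZW/LacJ. The difference was 20.3-fold, and whether the probe set also reads close Cyp2c relatives was not tested. Clic5, a chloride intracellular channel gene, read 9.25 against 127 and 5.57 to 9.39 elsewhere, and its further probe sets gave -1.93 and -3.33 log2. Ntrk2, the receptor gene of brain-derived neurotrophic factor, read 27.1 against 368 (13.6-fold), with a second probe set at -3.12. Nckap5 (8.47 against 95.6) was near the floor in each other strain.

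Of other genes with large values toward RIIIS/J, Gdpd3 and Abhd1 split the strains. Gdpd3, encoding a lysophospholipase D, was at 4.65 in C57BL/6J, under the floor, and 1142 in RIIIS/J, at least 139-fold higher. FVB/NJ also read 1827, while BALB/CByJ and NZW/LacJ were under the floor. Abhd1, an alpha/beta hydrolase gene, was high in RIIIS/J, BALB/CByJ and FVB/NJ and low in C57BL/6J and NZW/LacJ (54 in C57BL/6J, 1499 in RIIIS/J, 1273 in BALB/CByJ, 905 in FVB/NJ and 35.6 in NZW/LacJ). Enho, encoding the peptide hormone adropin, was lowest in C57BL/6J, with 286 against 2825 (9.89-fold) and 598 to 2788 in the other strains. Its further probe sets gave -3.92 and -0.71 log2. Pik3ap1 (52.4 against 831, others 587 to 1301), an adaptor gene of phosphoinositide 3-kinase, was also lowest in C57BL/6J. So was Mtmr7 (10.2 against 143, others 27.3 to 97.5), a phosphoinositide phosphatase gene. Each of these 2 genes had a second probe set that put the 2 arrays level, at 0.16 and 0.07 log2. Dmbt1, a secreted scavenger receptor gene, read 266 in RIIIS/J and 5.02 to 5.2 in the other 3 strains, a pattern like that of the acinar genes, and was kept because it was on no acinar list.

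For Pdxdc1, a pyridoxal-dependent decarboxylase-like gene, the choice of probe set decided the direction. Its brightest set gave 585 against 9.79 (5.90 log2), while the 3 further sets gave -5.78, 0.06 and 0.92. Rpgrip1, a gene of photoreceptor cilia, gave 389.7 against 13 on its brightest set and 0.01 to 0.09 log2 on 3 others. No level difference of the whole gene can be read from such sets.

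Clock genes lay far apart in both directions. Of 19 detected core clock genes 8 (42.1%) were at least 2-fold higher in C57BL/6J and 4 (21.1%) at least 2-fold higher in RIIIS/J, against 5.67% and 3.51% of all genes, and the median was 0.65. Activators and repressors were found on both sides. Higher in C57BL/6J were the PAR-domain activators Dbp and Tef, the REV-ERB repressors Nr1d1 and Nr1d2, the negative-limb genes Per2, Per3 and Cry2, and Ciart, a repressor of the CLOCK and BMAL1 pair. Higher in RIIIS/J were Arntl, which encodes BMAL1, Clock, the late repressor Cry1, and Nfil3, whose product competes with DBP for its sites. The time of day of collection was not given in the sources used here.

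Promoters of clock genes from both sides are shown with matches to the motifs that these factors are known to bind. The sequences are the 250 bases before the annotated start, from RefSeq (GRCm38.p6), written 5′ to 3′ on the gene's own strand, with matches in capitals. Searched on both strands were the E-box CACGTG, bound by CLOCK and BMAL1, the D-box TTATGTAA or TTACGTAA, bound by DBP, TEF and NFIL3, and the core TAGGTCA of the element bound by ROR and REV-ERB proteins. Among 32851 promoter windows the E-box occurred in 6.02%, the D-box in 0.93% and the ROR element core in 2.23%.
Ciart, chr3:95882229-95882478, minus strand, with E-boxes at -116, -58 and -44: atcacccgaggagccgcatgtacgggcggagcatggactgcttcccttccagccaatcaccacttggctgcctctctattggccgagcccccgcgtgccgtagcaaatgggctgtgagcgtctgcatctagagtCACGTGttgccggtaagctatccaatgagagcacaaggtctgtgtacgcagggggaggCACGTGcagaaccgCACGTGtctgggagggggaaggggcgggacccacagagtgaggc
Per3, chr4:151044666-151044915, minus strand, with D-boxes at -205 and -158: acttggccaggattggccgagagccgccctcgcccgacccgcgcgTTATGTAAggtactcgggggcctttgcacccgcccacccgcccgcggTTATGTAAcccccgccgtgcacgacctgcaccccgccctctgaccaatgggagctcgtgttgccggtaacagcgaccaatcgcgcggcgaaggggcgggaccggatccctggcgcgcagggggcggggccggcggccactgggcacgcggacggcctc
Nfil3, chr13:52981040-52981289, minus strand, with the ROR element core, as its reverse complement, at -12: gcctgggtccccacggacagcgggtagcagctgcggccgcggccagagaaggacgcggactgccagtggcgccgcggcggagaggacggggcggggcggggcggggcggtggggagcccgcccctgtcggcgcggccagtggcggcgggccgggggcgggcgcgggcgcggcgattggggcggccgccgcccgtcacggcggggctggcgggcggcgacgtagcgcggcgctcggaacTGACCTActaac
Of the 8 clock genes higher in C57BL/6J, 7 had a promoter in the table, with an E-box in 2 (Ciart and Tef), a D-box in 1 (Per3) and the ROR element core in 0. Of the 4 higher in RIIIS/J, an E-box was found in 1 (Cry1), a D-box in 0 and the ROR element core in 1 (Nfil3). Of the 7 within 2-fold, 5 had a promoter, with an E-box in 1 (Per1), a D-box in 0 and the ROR element core in 0. These counts are per gene, and a gene can have several windows, while the shares above are per window. The matches say only that these letters lie in these windows.

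Dbp, the output activator, had the second largest measured difference of all genes. It read 6439 in C57BL/6J, 75.5 in RIIIS/J, 8951 in BALB/CByJ, 4939.5 in FVB/NJ and 1023 in NZW/LacJ, which is 85.3-fold, and its second probe set gave 7.68 log2. RIIIS/J was lowest and NZW/LacJ next, below the 3 strains with high levels. Tef, which encodes a relative of DBP, read 1293 in C57BL/6J, 133 in RIIIS/J, 1530.3 in BALB/CByJ, 1387 in FVB/NJ and 301 in NZW/LacJ. The order was the same, with 9.75-fold between the 2 arrays and 1.09 and 1.96 log2 on the further probe sets.

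Nr1d1, encoding REV-ERB alpha, read 314 in C57BL/6J, 26.2 in RIIIS/J, 223 in BALB/CByJ, 95.4 in FVB/NJ and 136 in NZW/LacJ, a difference of 12-fold. Its partner Nr1d2, encoding REV-ERB beta, read 4108 in C57BL/6J, 987 in RIIIS/J, 4799 in BALB/CByJ, 3552 in FVB/NJ and 2131 in NZW/LacJ, or 4.16-fold. A second probe set of Nr1d2 gave a smaller 1.16 log2. In both genes RIIIS/J lay at least 2-fold under each other strain on the brightest set. Ciart read 75.6 in C57BL/6J, 16.3 in RIIIS/J, 212 in BALB/CByJ, 35.7 in FVB/NJ and 22.4 in NZW/LacJ, where BALB/CByJ was the high array and NZW/LacJ and RIIIS/J were both low.

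The period genes were dim. Per2 read 87.7 in C57BL/6J, 22.7 in RIIIS/J, 188 in BALB/CByJ, 183 in FVB/NJ and 29 in NZW/LacJ. Its second probe set gave 0.27 log2. Per3 read 104 in C57BL/6J, 25.5 in RIIIS/J, 197 in BALB/CByJ, 277 in FVB/NJ and 50.6 in NZW/LacJ. Its 4 further sets gave 0.05, 1.68, 2.07 and 2.35. For both genes C57BL/6J lay between the higher BALB/CByJ and FVB/NJ arrays and the lower NZW/LacJ and RIIIS/J arrays. Per1 was 29.4 against 18.7, within 2-fold. Cry2 read 363 against 117 (3.1-fold), with 189 to 404 in the other strains.

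Arntl ran the other way, with 13.7 in C57BL/6J, 156 in RIIIS/J, 14.1 in BALB/CByJ, 14.1 in FVB/NJ and 68.1 in NZW/LacJ. C57BL/6J, BALB/CByJ and FVB/NJ were level and close to the floor, NZW/LacJ was higher and RIIIS/J highest, 11.4-fold over C57BL/6J. Clock read 286 in C57BL/6J, 756 in RIIIS/J, 229.6 in BALB/CByJ, 214 in FVB/NJ and 723 in NZW/LacJ, with RIIIS/J and NZW/LacJ together above the other strains, and its 3 further probe sets gave -0.37, -1.87 and -3.44 log2. Nfil3 read 222 in C57BL/6J, 840.3 in RIIIS/J, 274 in BALB/CByJ, 229 in FVB/NJ and 644 in NZW/LacJ, the same split. Cry1 was 102 against 375 (3.68-fold), and Npas2, the close relative of Clock, was under the floor in C57BL/6J and 12.7 in RIIIS/J.

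**Figure D2:**
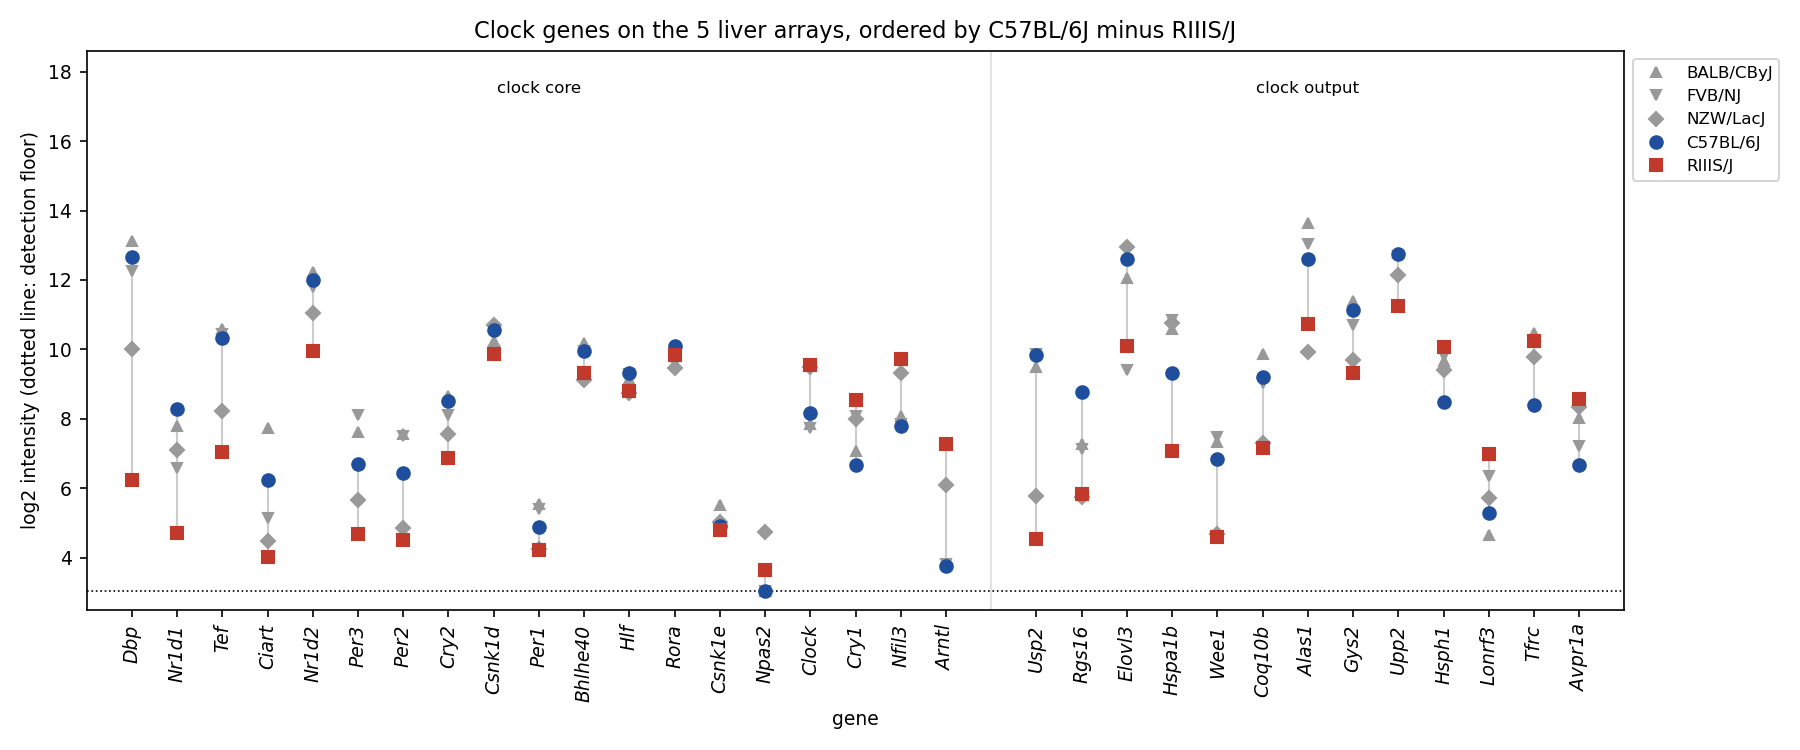
Log2 intensity (vertical axis) of 19 core clock genes and of the clock output genes at least 2-fold apart (horizontal axis), with C57BL/6J as circles, RIIIS/J as squares and the other 3 strains in grey. Squares lie under circles from Dbp to Cry2 and above them from Clock to Arntl, and the NZW/LacJ diamonds often lie between.

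Genes known to follow the clock in liver were divided too. Of 24 detected output genes 9 (37.5%) were at least 2-fold higher in C57BL/6J and 4 (16.7%) in RIIIS/J, against 5.67% and 3.51% of all genes. Their median was 0.09. The median was 0.64 over 21 genes with the floor at the 99th percentile, and 0.55 over 19 genes without probe sets ending in _s_at, _x_at or _a_at. Usp2, encoding a rhythmic ubiquitin protease, read 914 in C57BL/6J, 23.4 in RIIIS/J, 718 in BALB/CByJ, 929.8 in FVB/NJ and 55.3 in NZW/LacJ, or 39.1-fold, with 4.10 log2 on its second set. Rgs16, a regulator of G-protein signalling, was high in C57BL/6J alone (437 against 57, others 54.1 to 156). Wee1, encoding the kinase that holds cells before mitosis, read 115 in C57BL/6J, 24.2 in RIIIS/J, 161 in BALB/CByJ, 179 in FVB/NJ and 25.6 in NZW/LacJ. Its second probe set gave 1.73 log2. Again NZW/LacJ lay with RIIIS/J. The same layout was seen for Coq10b (587 against 143, NZW/LacJ 159), a coenzyme Q binding protein gene, and for Alas1 (6217 against 1704, NZW/LacJ 972), the rate-limiting enzyme of heme synthesis. Toward RIIIS/J stood Tfrc (337 against 1202, and -0.80 log2 on 1 further probe set), the transferrin receptor gene, Avpr1a (103 against 383), a vasopressin receptor gene, and Hsph1 (357 against 1074), a temperature-responsive chaperone gene. Gys2, the liver glycogen synthase gene, was higher in C57BL/6J (2259 against 646, 3.5-fold).

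Interferon-stimulated genes leaned to C57BL/6J. Of 34 detected 13 (38.2%) were at least 2-fold higher there and 1 (2.94%) in RIIIS/J, against 5.67% and 3.51% of all genes. The median was 0.71, and 30 of 34 had any positive difference, where 56.5% of all genes did. These genes encode antiviral effectors and the factors that switch them on. Several were dim, so that the folds of the dimmest depend on values near the floor.

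Ifit3, an antiviral RNA-sensing effector gene, had the largest measured difference of the list, with 204 in C57BL/6J, 14.2 in RIIIS/J, 138 in BALB/CByJ, 49 in FVB/NJ and 189 in NZW/LacJ. RIIIS/J was the lowest array by more than 2-fold, and the difference from C57BL/6J was 14.4-fold. Bst2, which encodes tetherin, the protein that holds budding viruses on the cell, read 2659 in C57BL/6J, 491 in RIIIS/J, 2085 in BALB/CByJ, 1319 in FVB/NJ and 2807 in NZW/LacJ. It was bright on each array, and RIIIS/J was lowest by 5.41-fold against C57BL/6J. Ifi27l2a was under the floor in RIIIS/J alone (114 against 7.81, at least 13.9-fold).

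The promoters of Ifit3 and Bst2 are shown because both hold matches to the interferon-stimulated response element, the site of the ISGF3 complex and of interferon regulatory factors. The motif was searched as GAAA, any 2 bases and GAAA on both strands. This motif occurred in 2.98% of the 32851 windows. Source, build and window are those of the clock promoters.
Ifit3, chr19:34583279-34583528, plus strand, with matches on the opposite strand at -156 and -122: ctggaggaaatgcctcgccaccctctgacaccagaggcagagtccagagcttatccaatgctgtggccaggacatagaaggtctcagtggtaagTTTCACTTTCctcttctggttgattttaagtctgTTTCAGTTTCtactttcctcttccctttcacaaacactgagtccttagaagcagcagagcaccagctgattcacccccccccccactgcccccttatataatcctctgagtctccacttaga
Bst2, chr8:71537473-71537722, minus strand, with overlapping matches at -130 and -124: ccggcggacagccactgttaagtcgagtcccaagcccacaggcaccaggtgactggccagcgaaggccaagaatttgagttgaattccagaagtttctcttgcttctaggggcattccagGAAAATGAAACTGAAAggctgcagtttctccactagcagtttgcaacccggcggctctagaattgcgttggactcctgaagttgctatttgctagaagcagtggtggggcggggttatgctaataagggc
Among the 13 interferon-stimulated genes higher in C57BL/6J, 9 had a promoter in the table and 5 held the motif (Bst2, Ifit1, Ifit3, Trim30a and Trim30d). Among the 20 members within 2-fold, 16 had one and 4 held it (Cxcl10, Oas1a, Rsad2 and Stat2).

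Usp18, encoding the protease that removes the interferon-induced modifier ISG15, read 121 in C57BL/6J, 16.3 in RIIIS/J, 132 in BALB/CByJ, 10.6 in FVB/NJ and 78.3 in NZW/LacJ. FVB/NJ was as low as RIIIS/J. Irf7, the amplifying transcription factor of the interferon response, read 83.5 in C57BL/6J, 22.6 in RIIIS/J, 57.3 in BALB/CByJ, 29.2 in FVB/NJ and 35.6 in NZW/LacJ. Ifit1 read 44.2 against 17 (2.6-fold), and 0.65 log2 with the floor at the 99th percentile. Samd9l (71.8 against 13.3), an antiviral restriction gene, was also lowest in RIIIS/J. Oas1a (58.4 against 57.7) and the RNA sensor gene Ifih1 (629 against 562) were level, and Oasl1, a repressor of Irf7 translation, was higher in RIIIS/J (32.9 against 103). Trim30a and Trim30d lie beside Trim12c, and these 3 neighbours were higher in C57BL/6J, but their second probe sets gave 0.44, 0.14 and 0.10 log2.

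Guanylate-binding proteins and related GTPases attack vacuoles of intracellular microbes. Of 11 detected 3 (27.3%) were higher in C57BL/6J and 0 in RIIIS/J, against 5.67% and 3.51% of all genes. The 3 were Gbp3 (106 against 29.1), Gbp2 (33.3 against 9.89) and Gbp8 (22.3 against 8.72). Gbp2 was within 2-fold on its second probe set (0.60 log2) and with the floor at the 99th percentile (0.24), a floor under which Gbp8 was no longer detected. Mndal, of the p200 family of DNA-binding interferon-inducible proteins, was detected in C57BL/6J at 332 and lay under the floor in both FVB/NJ and RIIIS/J. Its second probe set gave 4.99 log2. Ifi202b, of the same family, was higher in RIIIS/J (10.6 against 27.3).

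MHC class II genes, which present antigen to helper T cells, had the highest list median, 2.86, over 6 detected members. Of these 4 (66.7%) were higher in C57BL/6J and 0 in RIIIS/J, against 5.67% and 3.51% of all genes. The median rested on which members counted as detected, and was 0.22 over 11 genes with no floor and 0.22 over the 3 genes left without probe sets ending in _s_at, _x_at or _a_at. H2-Aa read 476 in C57BL/6J, 37.7 in RIIIS/J, 141 in BALB/CByJ, 3105 in FVB/NJ and 189.9 in NZW/LacJ. H2-Ab1 read 386 in C57BL/6J, 50.6 in RIIIS/J, 116 in BALB/CByJ, 4259 in FVB/NJ and 135 in NZW/LacJ. Cd74, the invariant chain gene, read 651 in C57BL/6J, 93.7 in RIIIS/J, 347 in BALB/CByJ, 9250.1 in FVB/NJ and 297 in NZW/LacJ. In these 3 genes RIIIS/J was lowest and FVB/NJ highest by far, and the FVB/NJ array also had the highest sum of B cell markers, 17746, against 221 in C57BL/6J and 235 in RIIIS/J. H2-Eb1 read 274 against 33.1 (8.26-fold), and the 3 neighbours H2-Ab1, H2-Aa and H2-Eb1 form 1 run on the chromosome. H2-Ea (0.10 log2) and H2-DMb2 (0.22) were near the floor on both arrays.

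Class I genes, read by killer T cells, followed in part. Of 15 detected 6 (40%) were higher in C57BL/6J and 0 in RIIIS/J, against 5.67% and 3.51% of all genes. The median was 0.28. Nlrc5, the transcriptional activator of class I genes, read 138 in C57BL/6J, 20.9 in RIIIS/J, 103 in BALB/CByJ, 106 in FVB/NJ and 42.3 in NZW/LacJ. RIIIS/J was lowest by 2-fold or more. H2-K1 read 11912 against 2602 (4.58-fold), with 0.77 to 3.05 log2 on 3 further probe sets, and Tap1, the peptide transporter gene, read 86.8 against 30.3 (2.86-fold). H2-D1 read 9243 against 3395 on its brightest set, but its 7 further sets ran from -1.25 to 1.5. Inbred strains carry different MHC alleles, and the part of allele sequence under the probes was not tested. B2m, the invariant light chain gene, was level at 31522 against 29568.

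Macrophage markers were lower on the RIIIS/J array as well. Of 16 detected Kupffer cell and macrophage markers 16 were higher in C57BL/6J, where 56.5% of all genes were. At least 2-fold higher were 4 (25%), against 5.67% of all genes. The markers had a median of 0.69 and a summed intensity of 10519 against 6378, with 10120.0 to 15069 in the other strains. Adgre1, encoding F4/80, read 123 in C57BL/6J, 37.3 in RIIIS/J, 47.6 in BALB/CByJ, 97.8 in FVB/NJ and 88.6 in NZW/LacJ. Cd163, the haemoglobin scavenger receptor gene, read 282 in C57BL/6J, 95.9 in RIIIS/J, 207 in BALB/CByJ, 118 in FVB/NJ and 181 in NZW/LacJ. Clec4f, the defining Kupffer cell lectin gene, was 683 against 537, within 2-fold. In bulk RNA fewer cells of a type and less RNA per cell cannot be told apart. Marco was near the floor on both arrays.

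Of the other cell types in liver, endothelial markers had 17 of 19 higher in C57BL/6J, where 56.5% of all genes were. Of the 17 markers 0 were 2-fold higher. The endothelial median was 0.33, with a summed intensity of 5472 against 4304. Of 16 stellate cell and fibroblast markers 4 (25%) were 2-fold higher in C57BL/6J, against 5.67% of all genes, and 0 in RIIIS/J. Among the 4 were Col3a1 (975 against 304), a fibrillar collagen gene, and Hand2 (46.5 against 16.4), a stellate cell transcription factor gene. Col3a1 gave 0.04 log2 on its second probe set, and Hand2 gave 0.72 log2 with the floor at the 99th percentile. B cell, T and NK cell and cholangiocyte markers were detected in 4, 3 and 4 genes, with 0 at least 2-fold apart and medians of -0.29, 0.00 and 0.10. Erythroid markers had a median of -0.16 over 6 genes, with 1 of them 2-fold higher in RIIIS/J. The part of these cell types in the MHC and interferon values was not tested.

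**Figure D3:**
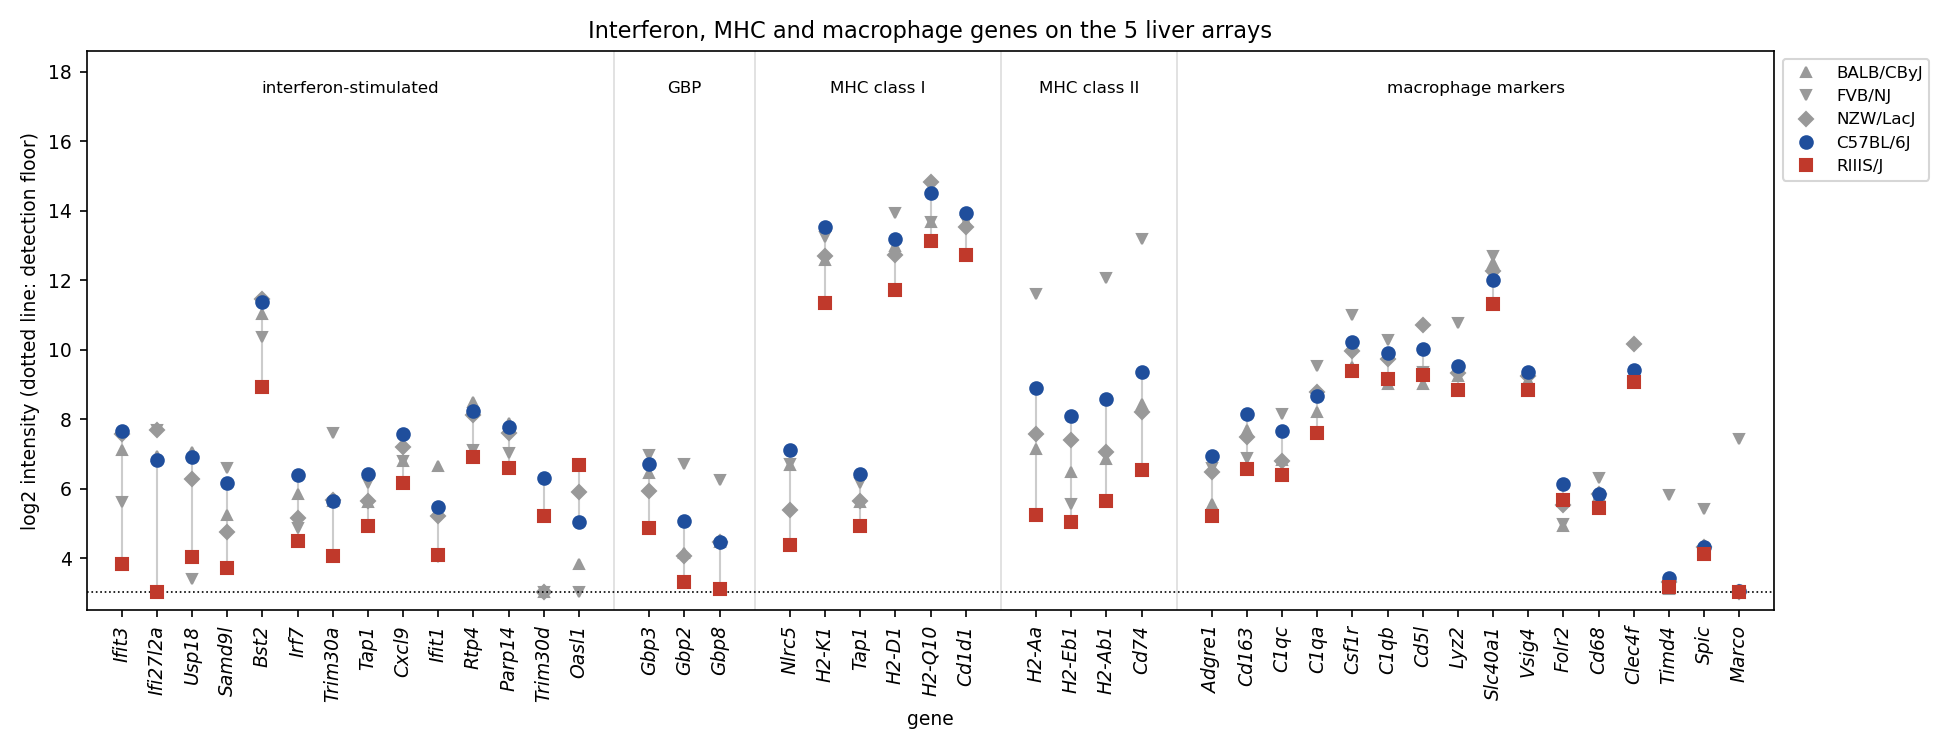
Log2 intensity (vertical axis) of interferon-stimulated, guanylate-binding protein (GBP) and MHC genes at least 2-fold apart, and of the detected macrophage markers (horizontal axis), on the 5 arrays. RIIIS/J squares lie under C57BL/6J circles for each gene shown except Oasl1, and the FVB/NJ triangles rise to 9250.1 in intensity at Cd74.

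Genes of fatty acid oxidation and other targets of PPAR alpha, the fasting-responsive nuclear receptor, showed a few large differences. Of 41 detected 6 (14.6%) were higher in C57BL/6J and 1 (2.44%) in RIIIS/J, against 5.67% and 3.51% of all genes. The median was 0.18. Cyp4a14, the omega-hydroxylase gene that responds strongly to PPAR alpha, read 3879.5 in C57BL/6J, 65.7 in RIIIS/J, 29.3 in BALB/CByJ, 86.9 in FVB/NJ and 9.71 in NZW/LacJ. C57BL/6J was the only high array, by 59-fold over RIIIS/J. Vnn1, described above, is a target of the same receptor and had the same layout. Cd36, the fatty acid uptake receptor gene, read 1027 in C57BL/6J, 467 in RIIIS/J, 148 in BALB/CByJ, 248 in FVB/NJ and 397 in NZW/LacJ, with 1.08 and 1.71 log2 on further probe sets.

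Decr2, of peroxisomal oxidation of unsaturated fatty acids, read 3139 in C57BL/6J, 644 in RIIIS/J, 3207 in BALB/CByJ, 2353 in FVB/NJ and 1718 in NZW/LacJ. RIIIS/J was lowest. Angptl4, which encodes an inhibitor of lipoprotein lipase, read 1497 against 443 (3.38-fold). Pdk4, the kinase gene that spares glucose in fasting, ran the other way with 80.0 in C57BL/6J, 277 in RIIIS/J, 54.8 in BALB/CByJ, 50.8 in FVB/NJ and 59.5 in NZW/LacJ, high in RIIIS/J alone. The receptor gene itself, Ppara (4172 against 3332), and the carnitine transferase gene Cpt1a (2309.9 against 1908) were within 2-fold.

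Fat synthesis genes leaned to C57BL/6J, with a median of 0.38. At least 2-fold higher were 4 of 30 (13.3%) there and 1 (3.33%) in RIIIS/J, against 5.67% and 3.51% of all genes. Lpin1, encoding a phosphatidate phosphatase of triglyceride synthesis, read 606 in C57BL/6J, 60.6 in RIIIS/J, 552 in BALB/CByJ, 322 in FVB/NJ and 178 in NZW/LacJ. RIIIS/J was lowest, 10.0-fold under C57BL/6J, and the second probe set gave 2.29 log2. Lpin2 was higher in C57BL/6J on each of its 4 probe sets (1.39 on the brightest, 1.85 to 2.76 on the others). Elovl3, the fatty acid elongase gene with a strong daily rhythm and male bias, read 6203 in C57BL/6J, 1096 in RIIIS/J, 4264 in BALB/CByJ, 676 in FVB/NJ and 7878 in NZW/LacJ, where FVB/NJ was low as well. Slc25a1 (3196 against 929.6), the mitochondrial citrate carrier gene, was lowest in RIIIS/J. Gpat3, a glycerol-phosphate acyltransferase gene, was instead low in C57BL/6J alone, with 25 in C57BL/6J, 206 in RIIIS/J, 201 in BALB/CByJ, 201 in FVB/NJ and 301 in NZW/LacJ. The central genes Fasn (2725 against 1991), Scd1 (34728 against 22835) and Srebf1 (2862 against 2332) were within 2-fold.

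Cholesterol synthesis was close, with a median of -0.16. Against 5.67% and 3.51% of all genes, 1 of its 22 genes (4.55%) was 2-fold higher in C57BL/6J and 0 in RIIIS/J. That gene was Hmgcs1 (18416 against 8420.0), which makes the mevalonate precursor, and 1 of its further probe sets gave -0.18 log2. Bile acid genes leaned to C57BL/6J, with a median of 0.28. There 7 of 31 (22.6%) were higher and in RIIIS/J 1 (3.23%), against 5.67% and 3.51% of all genes. Cyp7a1, the rate-limiting enzyme of bile acid synthesis, read 5113 in C57BL/6J, 1749.8 in RIIIS/J, 6805 in BALB/CByJ, 6814 in FVB/NJ and 2217 in NZW/LacJ. NZW/LacJ and RIIIS/J were the low arrays, and the second probe set gave 0.82 log2. Amacr, which acts on the side chain of bile acid precursors, read 3982 in C57BL/6J, 978 in RIIIS/J, 4034 in BALB/CByJ, 2667 in FVB/NJ and 2873 in NZW/LacJ, lowest in RIIIS/J.

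Transport genes of the same list were divided. Abcb11, the bile salt export pump gene, read 5574 against 2296 (2.43-fold), Abcg8, of the sterol exporter, read 575 against 177 (3.25-fold), and Slco1a4, an organic anion uptake gene, read 1289.8 against 563. Nr1h4, encoding the bile acid receptor FXR, read 2314 against 1137 (2.03-fold). Abcc2, the exporter of conjugated bilirubin, was high in RIIIS/J alone, with 2078 in C57BL/6J, 4878 in RIIIS/J, 1254 in BALB/CByJ, 827 in FVB/NJ and 1319 in NZW/LacJ.

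Among apolipoprotein and lipid transport genes 3 of 25 (12%) were higher in C57BL/6J and 3 (12%) in RIIIS/J. Over all genes these shares were 5.67% and 3.51%. Pltp, the phospholipid transfer protein gene, was high in C57BL/6J alone, with 5238 in C57BL/6J, 965 in RIIIS/J, 802 in BALB/CByJ, 1412 in FVB/NJ and 865 in NZW/LacJ. Its second probe set gave 2.39 log2. Sort1, a sorting receptor gene, gave 126 against 33 on its brightest set but 0.00 and 0.43 log2 on 2 others. Apoa4, which encodes a lipoprotein of intestine and liver, was low in C57BL/6J alone, with 486 in C57BL/6J, 1860.1 in RIIIS/J, 1416 in BALB/CByJ, 1379 in FVB/NJ and 1554 in NZW/LacJ.

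Glutathione transferases of the mu class, which conjugate electrophiles, held several of the large differences among detoxification enzymes. Of 24 detected transferases 5 (20.8%) were higher in C57BL/6J and 2 (8.33%) in RIIIS/J, against 5.67% and 3.51% of all genes. The median was -0.01. Gstm3 read 2629 in C57BL/6J, 71.2 in RIIIS/J, 1595 in BALB/CByJ, 2562 in FVB/NJ and 271 in NZW/LacJ, a difference of 36.9-fold, and a second probe set gave 5.58 log2. Gstm6 read 1323 in C57BL/6J, 99.5 in RIIIS/J, 2045 in BALB/CByJ, 523 in FVB/NJ and 131 in NZW/LacJ. Gstm2 read 1526 in C57BL/6J, 217 in RIIIS/J, 4041 in BALB/CByJ, 1081 in FVB/NJ and 182 in NZW/LacJ. RIIIS/J and NZW/LacJ were the 2 lowest arrays for each of these, with NZW/LacJ 271 against 71.2 for Gstm3, where RIIIS/J was at least 2-fold under each other strain.

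Gstm6, Gstm3, Gstm2 and Gstm1 follow one another on the chromosome and formed a run of 4 genes higher in C57BL/6J, with Gstm1 at the limit (19614 against 9673, 2.03-fold) and within 2-fold on 2 further probe sets, at 0.99 and 0.29 log2. Gstm5 was lowest in RIIIS/J (356 against 70.0). Gstm7 went the other way, with 1015 in C57BL/6J, 5196 in RIIIS/J, 1059.6 in BALB/CByJ, 633 in FVB/NJ and 4562 in NZW/LacJ. Here too NZW/LacJ lay with RIIIS/J. The genes of this cluster are alike in sequence, and how far their probe sets read more than 1 of them was not tested. Gsta2, of the alpha class, was higher in RIIIS/J (8378 against 18214, 2.17-fold).

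Cytochrome P450 genes of drug metabolism went both ways, with 4 of 34 (11.8%) higher in C57BL/6J, 4 (11.8%) in RIIIS/J and a median of 0.00. Over all genes the shares were 5.67% and 3.51%. Cyp2c68 read 11143 in C57BL/6J, 2763 in RIIIS/J, 12173 in BALB/CByJ, 7527 in FVB/NJ and 7840.3 in NZW/LacJ, lowest in RIIIS/J. Beside Cyp2c38 stands Cyp2c39, which was under the floor in C57BL/6J, 19.5 in RIIIS/J and 157 to 631 in the other strains. Cyp17a1, a steroid hydroxylase gene, was 13.3 against 58.4 and under the floor in the other strains. Cyp2b9, a gene of female liver, was detected in RIIIS/J at 61.2 and in FVB/NJ at 22.3, and was under the floor in C57BL/6J.

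Other families of conjugation and hydrolysis held few genes at least 2-fold apart. Against 5.67% and 3.51% of all genes, 1 of 17 glucuronosyl- and sulfotransferases (5.88%) was higher in C57BL/6J and 2 (11.8%) in RIIIS/J. The latter were Ugt2b37 (18.5 against 126) and Ugt2b38 (408 against 1056), and both were highest in NZW/LacJ. Of 11 carboxylesterases 0 and 0 were 2-fold apart in the 2 directions. Of 32 aldo-keto, carbonyl, aldehyde and flavin enzymes 2 (6.25%) were higher in C57BL/6J, close to the 5.67% of all genes, and 0 in RIIIS/J. Among the 2 was Akr1c14 (9325 against 3903), a steroid-metabolising reductase gene that was lowest in RIIIS/J.

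Acute phase proteins, secreted by the liver in inflammation, were divided, with 5 of 32 higher in C57BL/6J and 6 in RIIIS/J (15.6% and 18.8%). Over all genes these shares were 5.67% and 3.51%. Lbp, which carries bacterial lipopolysaccharide, read 1115 in C57BL/6J, 4537 in RIIIS/J, 1277 in BALB/CByJ, 825 in FVB/NJ and 1351 in NZW/LacJ. It was high in RIIIS/J alone, and its second probe set gave -3.60 log2. Orm2 (126 against 350.0), an acid glycoprotein gene, and Lcn2 (14.1 against 37.1, and -0.39 log2 with the floor at the 99th percentile), which encodes an iron-siderophore trap, were higher in RIIIS/J and highest in NZW/LacJ. Saa2 (193 against 80.1) and Saa3 (128 against 41.8), serum amyloid genes, were instead lowest in RIIIS/J. The receptor genes Il6ra (221 against 88.1) and Il1r1 (220.1 against 80.3) were higher in C57BL/6J, the first with 0.08 log2 on a second probe set.

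Metallothioneins, which bind zinc and copper, were low in C57BL/6J. Mt2 read 228 in C57BL/6J, 1274 in RIIIS/J, 855 in BALB/CByJ, 1356 in FVB/NJ and 2201 in NZW/LacJ. Mt1 read 1459.8 in C57BL/6J, 3995 in RIIIS/J, 3372 in BALB/CByJ, 4235 in FVB/NJ and 7021 in NZW/LacJ on a probe set that it may share with relatives, while its second set put the 2 arrays level. Slc30a10, a manganese exporter gene, was also higher in RIIIS/J (117 against 349). So 3 of 15 metallothionein and zinc transporter genes (20%) were higher there, against 3.51% of all genes, and 0 in C57BL/6J.

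Of 28 iron and heme handling genes 5 (17.9%) were higher in C57BL/6J and 3 (10.7%) in RIIIS/J, against 5.67% and 3.51% of all genes. Hamp2, a close copy of the hepcidin gene, read 4079 in C57BL/6J, 38309.9 in RIIIS/J, 2258 in BALB/CByJ, 4695 in FVB/NJ and 40752 in NZW/LacJ. RIIIS/J and NZW/LacJ were the high arrays, and Hamp, encoding hepcidin, the hormone that lowers plasma iron, was 39899.5 against 23410.0. Whether the 2 copies share signal was not tested. Hmox1, the heme oxygenase gene, was lowest in RIIIS/J, with 123 in C57BL/6J, 22.2 in RIIIS/J, 123 in BALB/CByJ, 373 in FVB/NJ and 134 in NZW/LacJ. Alad, of heme synthesis, read 4257 against 9377 and 2 neighbours, Alad and Hdhd3 (105 against 579.8), were both higher in RIIIS/J.

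Serpins, a family of protease inhibitors that the liver secretes, held the longest run of neighbours. Serpina11, Serpina9, Serpina12, Serpina4-ps1 and Serpina3a, 5 consecutive detected genes, were each at least 2-fold higher in RIIIS/J, although Serpina9 was within 2-fold (-0.19 log2) with the floor at the 99th percentile. Serpina4-ps1 read 491 in C57BL/6J, 1780.1 in RIIIS/J, 5197 in BALB/CByJ, 4590.3 in FVB/NJ and 1838 in NZW/LacJ. Its further probe sets gave -1.63 and -2.35 log2. C57BL/6J was the low array. Serpina11 read 1285 in C57BL/6J, 3070.1 in RIIIS/J, 7304 in BALB/CByJ, 3718 in FVB/NJ and 2460.0 in NZW/LacJ, with C57BL/6J again lowest. Serpina12, the vaspin gene, was spread widely over the strains (1668 against 3525, others 489.9 to 11999). Serpina3a was under the floor in C57BL/6J, 224 in RIIIS/J and 171 in BALB/CByJ. Outside the run Serpina7, encoding the thyroxine-binding globulin, was higher in C57BL/6J, with 652 in C57BL/6J, 123 in RIIIS/J, 216 in BALB/CByJ, 305 in FVB/NJ and 398 in NZW/LacJ.

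**Figure D4:**
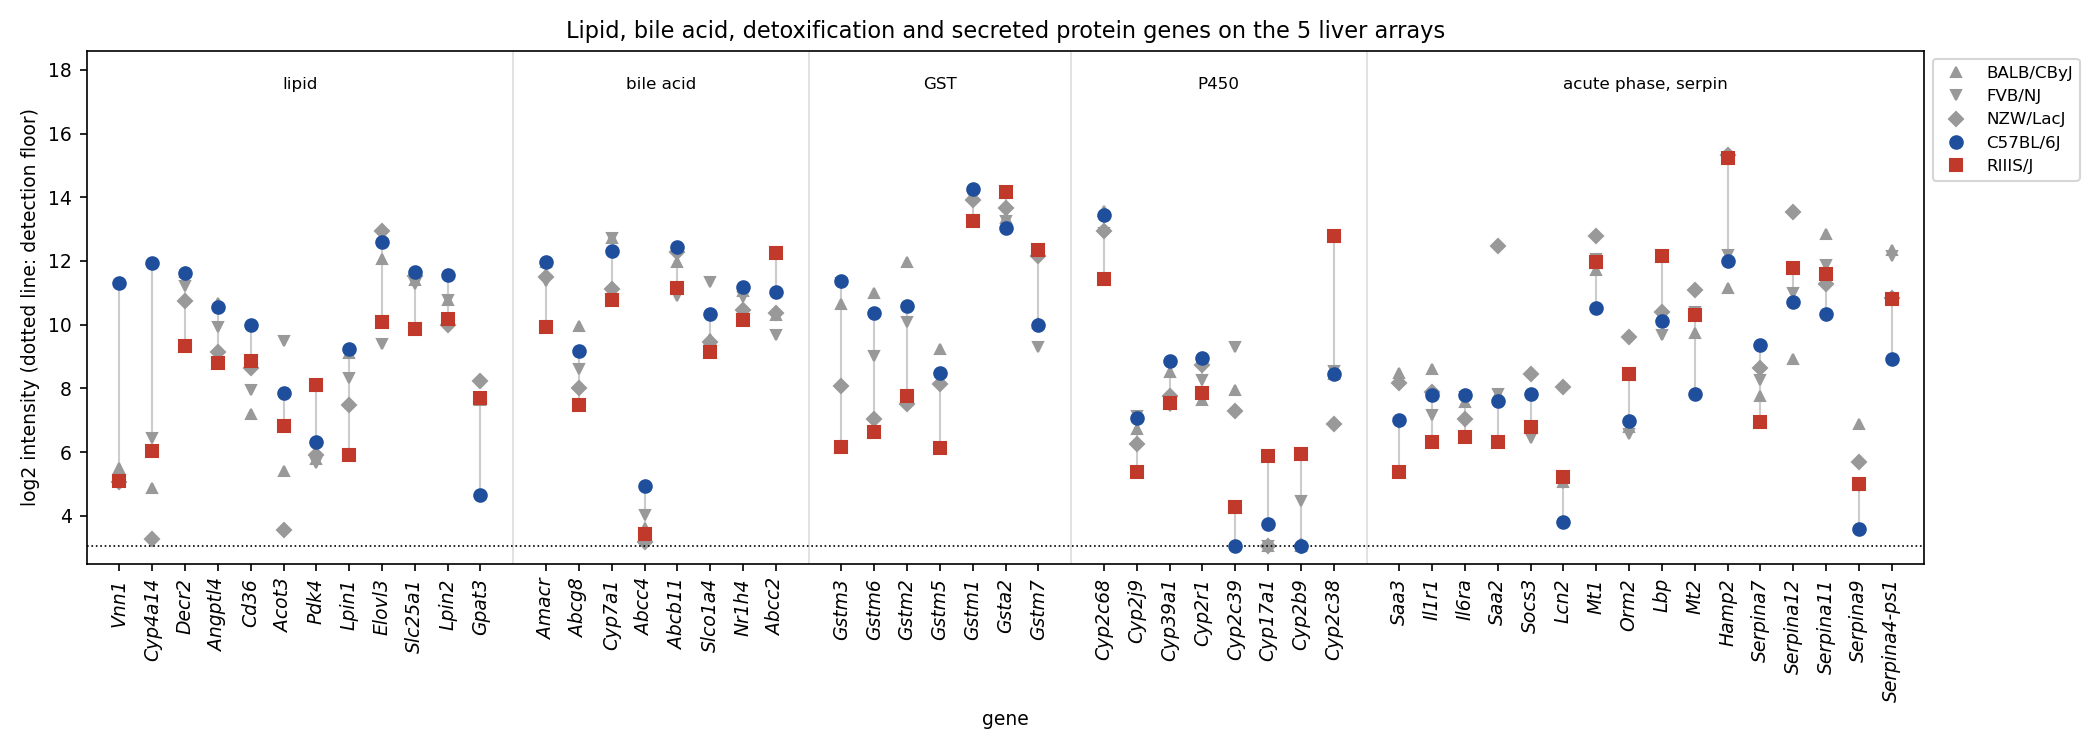
Log2 intensity (vertical axis) of lipid, bile acid, glutathione transferase (GST), cytochrome P450, acute phase and serpin genes at least 2-fold apart (horizontal axis) on the 5 arrays. Circles of C57BL/6J stand alone at the top for Vnn1 and Cyp4a14, and RIIIS/J squares and NZW/LacJ diamonds are the 2 lowest for Gstm3, Gstm6 and Gstm2, with RIIIS/J well under NZW/LacJ for Gstm3.

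Glucose genes were divided as well, with 5 of 33 (15.2%) higher in C57BL/6J, 2 (6.06%) in RIIIS/J and a median of 0.04. Over all genes the shares were 5.67% and 3.51%. G6pc, which releases glucose from the liver, was high in RIIIS/J alone, with 1687 in C57BL/6J, 5504 in RIIIS/J, 1542 in BALB/CByJ, 2036 in FVB/NJ and 1243 in NZW/LacJ. Pck1, the other main enzyme gene of gluconeogenesis, leaned the other way, at 16061 against 8196 and just within 2-fold. Igfbp1, an insulin-repressed binding protein gene, was highest in C57BL/6J, with 788 in C57BL/6J, 146 in RIIIS/J, 114 in BALB/CByJ, 139 in FVB/NJ and 260.3 in NZW/LacJ. Its neighbour Igfbp3 was higher in C57BL/6J than in RIIIS/J (320.2 against 114, and 0.92 log2 on a further probe set), but RIIIS/J was the array apart. Trib3 (253 against 65.7), a pseudokinase gene of the stress response, varied over the strains from 23.9 to 312. Ppp1r3c, which targets a phosphatase to glycogen, read 1313 against 3348, with -2.05 log2 on a second probe set.

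The amino acid and ER stress list had a median of -0.23. Against 3.51% and 5.67% of all genes, 4 of its 27 (14.8%) were higher in RIIIS/J and 3 (11.1%) in C57BL/6J. The former were Manf (3579 against 10206), Creld2 (822 against 2048), Hspa5 (13774 against 28211), which encodes the chaperone BiP, and Pdia6 (1401 against 2837), a disulfide isomerase gene. Hspa5 was within 2-fold on its further probe sets, at -0.84 and -0.52 log2. NZW/LacJ read 23777 for Hspa5 and 8649 for Manf, between the 2 strains. Acinar cells also express these genes, and Prss2, given above, read 10.1 in C57BL/6J, 14379.7 in RIIIS/J and 12.8 in NZW/LacJ. The part of acinar RNA in these values was not tested. Asns, the asparagine synthetase gene, was high in C57BL/6J alone (60.2 against 15.7), with 2.86 log2 on a second probe set. Herpud1, of ER-associated degradation, was higher in C57BL/6J (4569.5 against 1951).

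Of 39 genes of amino acid breakdown 2 (5.13%) were higher in C57BL/6J and 3 (7.69%) in RIIIS/J, against 5.67% and 3.51% of all genes. In sulfur amino acid metabolism 2 of 21 (9.52%) were higher in C57BL/6J and 1 (4.76%) in RIIIS/J, with a median of -0.26. Csad, which makes taurine from cysteine, was lowest in RIIIS/J (6373 against 2129, others 5073 to 6591). Mpst, which transfers sulfur from mercaptopyruvate, was highest in RIIIS/J, with 144 in C57BL/6J, 819 in RIIIS/J, 106 in BALB/CByJ, 53.9 in FVB/NJ and 83.3 in NZW/LacJ.

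Immediate early genes, switched on within minutes by growth factors or stress, had 4 of 23 (17.4%) higher in C57BL/6J and 1 (4.35%) in RIIIS/J. Over all genes these shares were 5.67% and 3.51%. Egr1, a zinc finger activator gene, read 791 in C57BL/6J, 20.4 in RIIIS/J, 267 in BALB/CByJ, 452 in FVB/NJ and 705 in NZW/LacJ. RIIIS/J was the only low array, 38.8-fold under C57BL/6J. Gadd45a (172 against 39.3) and Klf10 (176 against 58.2) were also lowest in RIIIS/J, Jun (68.7 against 62.5) was level and Dusp1 (298 against 632) was higher in RIIIS/J. Heat shock and co-chaperone genes had a median of -0.08. Of 22 detected 3 (13.6%) were higher in C57BL/6J and 1 (4.55%) in RIIIS/J, against 5.67% and 3.51% of all genes. The chaperone gene Hsph1, given above, was higher in RIIIS/J. Hspb1 read 306 in C57BL/6J, 42.6 in RIIIS/J, 179 in BALB/CByJ, 104 in FVB/NJ and 254 in NZW/LacJ. Its second probe set gave 4.86 log2. Hspa1b read 644 in C57BL/6J, 135 in RIIIS/J, 1540.0 in BALB/CByJ, 1851 in FVB/NJ and 1718 in NZW/LacJ. Both were lowest in RIIIS/J, as was the small heat shock gene Cryab on its brightest probe set (89.5 against 25.3), while its other set put C57BL/6J and RIIIS/J level (0.02 log2).

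Sex-biased and growth hormone regulated genes were spread in both directions although both pools were male, with a median of -0.03. Of 36 detected 8 (22.2%) were higher in C57BL/6J and 6 (16.7%) in RIIIS/J, against 5.67% and 3.51% of all genes. Toward RIIIS/J stood Obp2a, an odorant-binding lipocalin gene, with 11.1 in C57BL/6J, 159 in RIIIS/J, 6.38 in BALB/CByJ, 7.22 in FVB/NJ and 811 in NZW/LacJ, where NZW/LacJ was higher still. Ntrk2 and Cyp2b9, given above, belong to the same list. Toward C57BL/6J stood C9, a pore-forming complement gene, lowest in RIIIS/J (19139 against 7937), C6 (2720.1 against 1287), and Bcl6 (1009 against 406, and 0.77 log2 on a further probe set), a repressor gene of female-biased expression. Igf1 (8371 against 12483), the main growth hormone target, and Hsd3b5 (8273 against 8689), a male steroid dehydrogenase gene, were within 2-fold.

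Along the liver lobule, genes expressed next to the central vein had 6 of 26 (23.1%) higher in C57BL/6J and 1 (3.85%) in RIIIS/J. Genes expressed next to the portal vein had 1 (4.76%) and 2 (9.52%) of 21, against 5.67% and 3.51% of all genes. The medians were 0.23 and 0.05. Glul, the defining pericentral glutamine synthetase gene, was 9787 against 5831. Notum, a Wnt inhibitor gene, was 182 against 80.6. Ass1, of the urea cycle, gave 53.7 against 223 on the probe set assigned to it alone. Whether that dim set reads the whole RNA of the gene was not tested. Cdh1, the E-cadherin gene, was higher in C57BL/6J (999.7 against 337).

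Of 32 detected genes known to vary among inbred strains 5 were higher in C57BL/6J and 6 in RIIIS/J (15.6% and 18.8%), against 5.67% and 3.51% of all genes. The list was drawn up with earlier values of these arrays known. Nnt, deleted in part in C57BL/6J, read 708 in C57BL/6J, 1928 in RIIIS/J, 2475 in BALB/CByJ, 2429.6 in FVB/NJ and 1616 in NZW/LacJ. C57BL/6J was the low array, by 2.72-fold, and the second probe set gave -1.18 log2. Glrx, a glutaredoxin gene of the same redox list, was low in C57BL/6J as well (580.1 against 1628, others 1255 to 1357). Wdfy1 was higher in RIIIS/J on each of its 4 probe sets, from -0.63 to -2.08 log2. Vwf, the von Willebrand factor gene, was level in liver at 46.5 against 44.4.

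Genes that lie side by side were then read along the chromosomes. Of 11387 adjacent pairs of placed genes 84 were at least 2-fold apart in the same direction, 59 toward C57BL/6J and 25 toward RIIIS/J. They formed 72 runs, 8 of them with 3 or more genes. Besides the Serpina, Gstm, MHC class II, Trim and Snrnp25 runs these were Ehmt2 to Hspa1b (4 genes), Clec1b to Gabarapl1 (3 genes) and Herpud1, Nlrc5 and Cpne2, all higher in C57BL/6J. Members of a family can share probes, and the part of that in these runs was not tested. With 5.67% and 3.51% of all genes called in the 2 directions, some called genes fall side by side whatever their order. How many of the 84 pairs that covers was not tested.

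The large housekeeping complexes held 1 gene at least 2-fold apart. Of 44 subunits of oxidative phosphorylation 0 and 0 were at least 2-fold apart in the 2 directions, with a median of -0.14. For 28 ribosomal proteins the counts were 0 and 0 and the median -0.14. For 37 proteasome subunits they were 0 and 1 with -0.10, the 1 subunit being Psma7 (2159.9 against 4625, and -0.80 log2 on a further probe set). By sign alone 31 of 44 subunits of oxidative phosphorylation (70.5%), 18 of 28 ribosomal proteins (64.3%) and 23 of 37 proteasome subunits (62.2%) were higher in RIIIS/J, against 37% of all genes. Of all genes 6.47% had equal values on the 2 arrays. The medians of these lists are smaller than the median gap of 0.30 log2 between 2 probe sets of a gene.

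**Figure D5:**
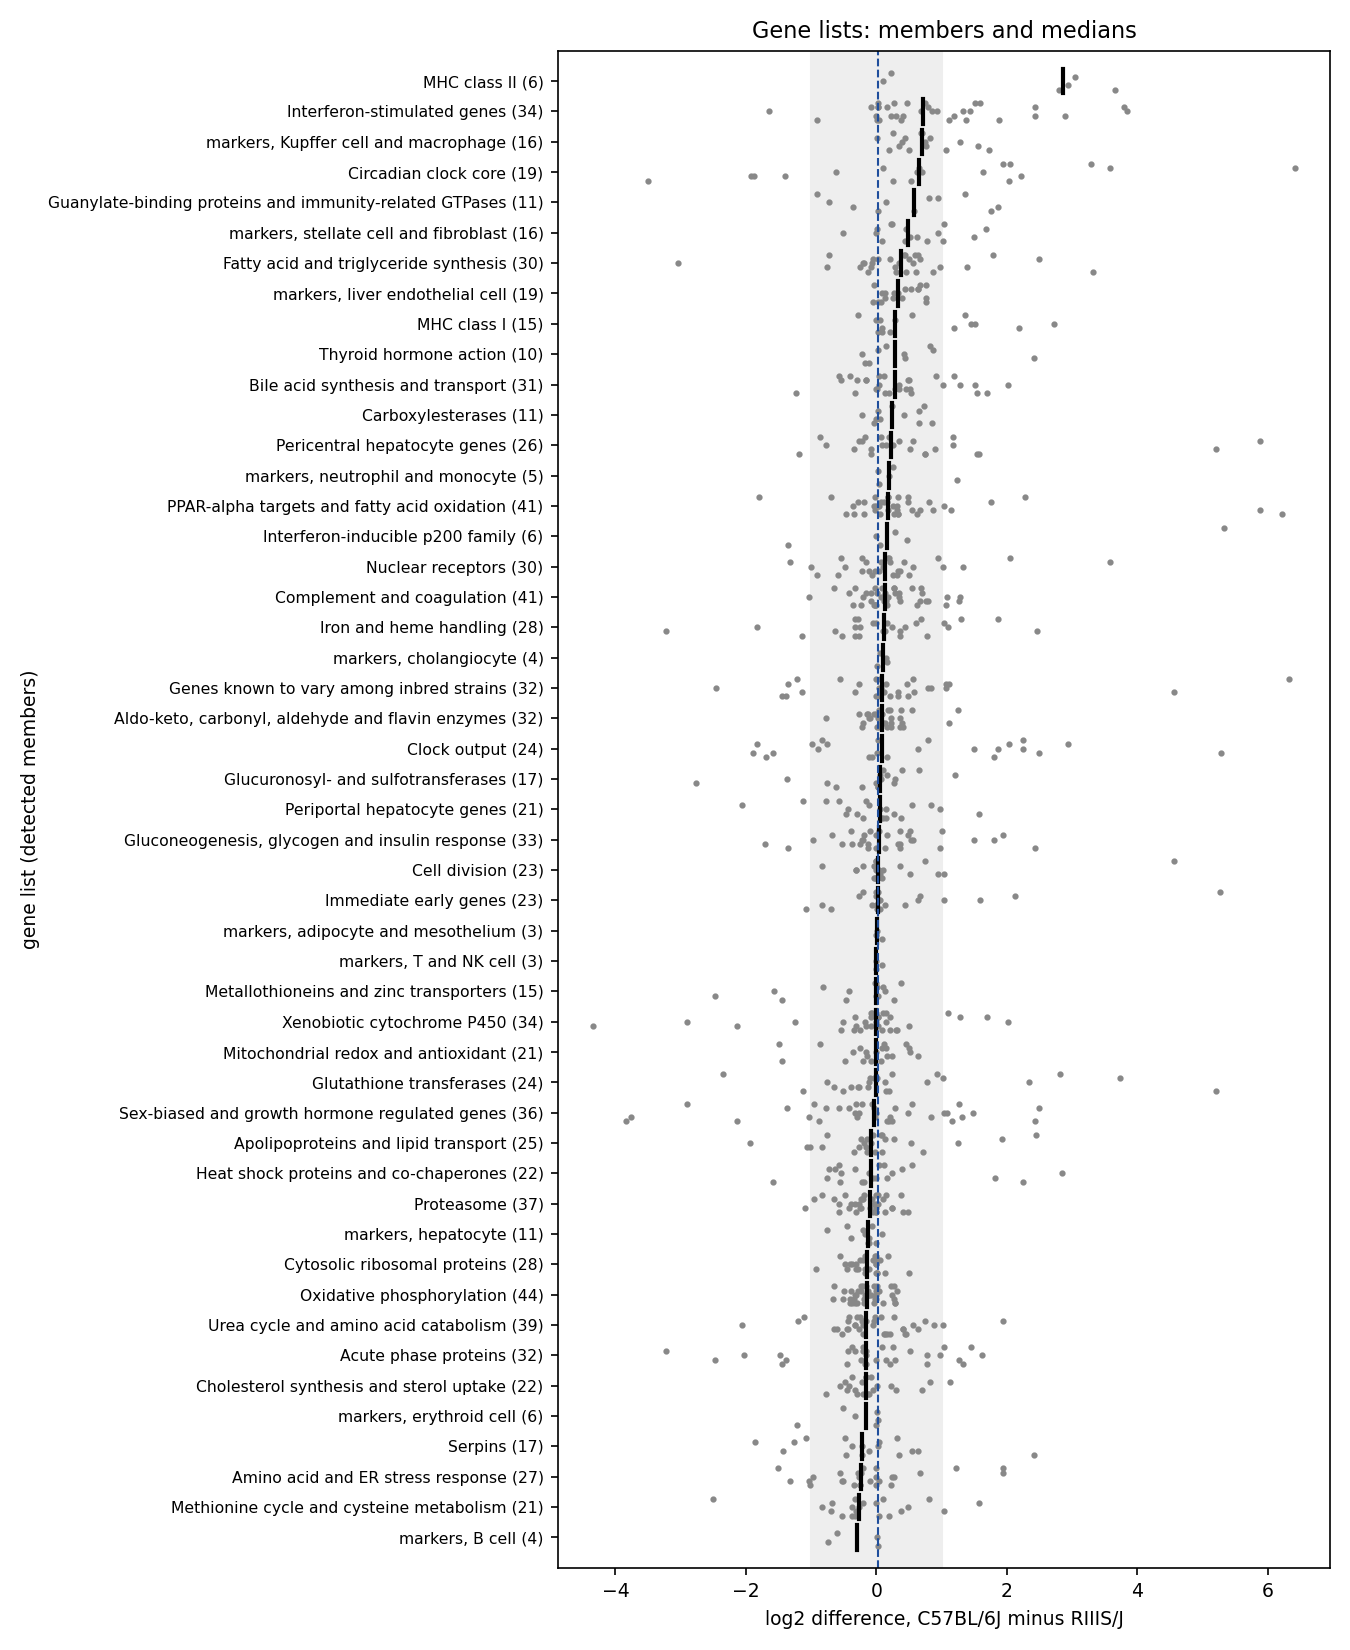
Log2 difference, C57BL/6J minus RIIIS/J (horizontal axis), of each detected member (grey points) of the gene lists (vertical axis, number of detected members in brackets), with list medians as black bars, the range within 2-fold shaded and the median of all genes, 0.02, as a dashed line. MHC class II stands highest at 2.86 (0.22 with no floor), the core clock list reaches far in both directions around 0.65, and the P450 and sex-biased lists do so around 0.00 and -0.03.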

How the data were processed

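Liver RNA was measured on 5 arrays, 1 per strain, of which C57BL/6J and RIIIS/J are compared here. The deposited values are intensities on a linear scale, which the authors made with GCRMA after GCOS, as the submitters' processing notes list them. Versions and settings of these programs, array batches and times of collection are not given in the sources used here. Of 45101 probe sets 34958 had 1 gene by the platform annotation, 932 had several and 9211 had none, and 34754 of those with 1 gene matched the RefSeq gene table of GRCm38.p6, used for names, gene order and promoters.

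The log2 of each intensity was taken. For each of 18193 genes the probe set of highest mean across the 5 arrays was kept. Values under a floor, the 95th percentile of 83 chemosensory receptor probe sets, were raised to it. Genes at least 2-fold apart were counted, with acinar pancreas genes left out. There was no test, no replicate and no p-value. Named were members of the gene lists, neighbours called in the same direction, and in each direction the 15 largest measured differences and the 8 largest bounds. Genes and the 52 lists (1260 of 1496 entries matched a gene on the array) were chosen with earlier results of these data known. The lists were written from general knowledge, and a gene can stand on several. Alternatives were another floor, no floor, other choices of probe set, keeping the acinar genes, a 4-fold threshold, loess correction (span 0.3) and quantile normalisation. The steps were tested on simulated data. The tools were pandas 2.3.3 and numpy 2.4.6 in Python 3.11.15, with statsmodels 0.14.6 for loess and matplotlib 3.10.9 for figures.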

Additional observations from a re-analysis of the deposited data

How the results depend on the processing

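The counts of 648 genes higher in C57BL/6J and 401 higher in RIIIS/J became 427 and 264 when the probe sets of a gene were averaged, sharing 383 and 227 genes with the main counts, and 139 and 64 at a 4-fold threshold. Under the other settings they stayed between 543 and 662 and between 330 and 429. Of 315 list medians over 7 settings 307 moved by less than the median gap between 2 probe sets of a gene, 0.30 log2, and 8 by more. The 8 were MHC class II (0.22 with no floor and without probe sets ending in _s_at, _x_at or _a_at, 2.34 with averaged sets), clock output (given above), and, with the floor at the 99th percentile, MHC class I (0.86), guanylate-binding proteins (0.19) and the p200 family (3.56, on 1 gene). Of 89 named genes at least 2-fold apart with further probe sets, 46 had a set that was not 2-fold apart in that direction. Of 1596 values of 214 named genes 1321 moved by less than that gap, 265 by more and 10 turned direction. The 10 were single probe sets of H2-D1 (-1.09 and -1.25 log2), Hmgcs1 (-0.18), Mt1 (0.0034, also without probe sets ending in _s_at, _x_at or _a_at), Mtmr7 (0.065), Pdxdc1 (-5.78), Pik3ap1 (0.16), Slc1a2 (-0.57) and Socs2 (0.084), and the cause was not tested. No paired analysis was possible because there was 1 array per strain. Genes near the floor carry the least certain folds.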

Other observations

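Nuclear receptors are the ligand-controlled transcription factors of the liver. Against 5.67% and 3.51% of all genes, 4 of 30 detected members (13.3%) were at least 2-fold higher in C57BL/6J and 1 (3.33%) in RIIIS/J. Besides Nr1d1, Nr1d2 and Nr1h4 the former included Nr3c2, encoding the mineralocorticoid receptor (124 against 49.5). The latter was Nr1h3, encoding the oxysterol receptor LXR alpha (285 against 714), with 289 to 577 in the other strains, so that RIIIS/J was highest and C57BL/6J lowest. Of 41 complement and coagulation genes 4 (9.76%) were higher in C57BL/6J and 1 (2.44%) in RIIIS/J, against 5.67% and 3.51% of all genes. C1qa (410.0 against 195) and C1qc (204 against 83.5), made by macrophages, lie side by side and were higher in C57BL/6J, and Mbl1, a mannose-binding lectin gene, was higher in RIIIS/J (4313 against 8845).

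The median over 23 detected cell division genes was 0.03. Of them 2 (8.7%) were higher in C57BL/6J, against 5.67% of all genes, and 0 in RIIIS/J. These were Pttg1 and the cyclin gene Ccne1 (55.2 against 26.8, with 0.22 log2 on a second probe set). Replication and spindle genes such as Top2a (0.03 log2), Mcm5 (0.06) and Birc5 (0.04) were level, so the large value of Pttg1 stood apart from the rest of its list. Among 10 genes of thyroid hormone action Serpina7 was the 1 at least 2-fold apart, while Thrsp (0.87 log2) and Klf9 (0.82), which respond to the hormone, were within 2-fold.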
